A study of Mus musculus with 6 samples.

Results

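The genes described here encode the laminin chains, the collagens and 12 further proteins of basement membranes and of the interstitial matrix. They were taken by name: every gene whose symbol begins with Lama, Lamb or Lamc and a number, every collagen chain named in the form Col4a1, and *Nid1*, *Nid2*, *Hspg2*, *Agrn*, *Fn1*, *Sparc*, *Fbln1*, *Fbln2*, *Fbn1*, *Fbn2*, *Vcan* and *Tnc*. This gave 61 of 16523 genes on the array, read by 835 of 77669 probe sets that carried a single gene symbol. A member had between 1 and 39 probe sets, with a median of 12. The naming rule itself uses no measured value, though the set was proposed with earlier results of these data known.

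Basement membranes are thin sheets on which epithelia and endothelia rest. Laminin, a trimer of an alpha, a beta and a gamma chain, forms the first network on the cell surface, collagen IV forms a second network, and nidogen, perlecan and agrin join them. Laminin-111, made of the products of *Lama1*, *Lamb1* and *Lamc1*, is the laminin of early embryonic membranes, whereas the alpha4 and alpha5 chains, with *Lamb1* and *Lamc1* products, are those known from endothelium. Fibronectin is the matrix on which mesoderm migrates and early vessels assemble.

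Mouse embryos of ICR females mated with ETV2::GFP males gave the cells, sorted as ETV2::GFP+FLK1+CD41- at E7.5 for one group and at E8.5 for the other. The GFP of both groups came from a transgene reporting *Etv2*, a transcription factor needed for endothelium and blood, FLK1 is the VEGF receptor encoded by *Kdr*, and CD41, the product of *Itga2b*, appears as cells commit to blood. Each group had 3 replicates of 50 sorted cells, whose RNA was amplified (SuperAmp kit) before hybridization to 1 Affymetrix Mouse Exon 1.0 ST array per replicate. The labels give the stage alone, while the study places the E8.5 cells in the embryo proper and the E7.5 cells in extra-embryonic tissue, so that stage and site cannot be told apart. The study calls the replicates biological, but nothing in the sources used here says that they came from separate litters. A p-value reflects only how far these 6 samples spread. The test used, limma, draws the spread of each gene towards that of all genes, in its SEs and intervals too. Fewer cells of a type and less RNA per cell cannot be told apart in such sorted pools. The values were log2 signals from RMA, a method that corrects background, brings the arrays to a common distribution and summarizes each probe set. In the table used here the array medians still ranged from 6.98 to 7.07. The value of a gene on an array was the median over its probe sets, and a difference of 1 log2 unit is a 2-fold difference in signal. A level therefore describes a gene on this scale and was not set against the level of another gene, since probe sets differ in brightness.

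No member passed the limma test after Benjamini-Hochberg adjustment over all genes at 0.05, and the lowest adjusted p of a member was 0.17. Over all 16523 genes 18 passed, or 0.109%, of which 6 (0.0363%) were higher and 12 (0.0726%) lower at E8.5. At an unadjusted limma p under 0.05, 6 of 61 members (9.84%) had the higher mean at E8.5 and 0 the lower, beside 3.11% and 4.68% of all genes. These were *Lamb1*, *Lamc1*, *Nid1*, *Col18a1*, *Col9a3* and *Col1a1*. A count of 6 rests on few genes: it was 3 when E7.5 replicate 1, E7.5 replicate 3 or E8.5 replicate 2 was left out, and *Lamb1* and *Lamc1* were the members counted in all 6 fits that left out 1 array. Over 2-fold, 2 members had the higher mean at E8.5 (3.28%) and 0 the lower, beside 2.72% and 4.79% of all genes (7.5% in either direction). The 3 arrays of one stage lay wholly above those of the other in 11 members at E8.5 (18%, with 7.1% of all genes) and in 3 members at E7.5 (4.92%, with 7.12%).

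Most members differed little. The mean was higher at E8.5 in 43 members and lower in 18 (positive in 70.5% of members and 50.5% of all genes), and the median log2 fold change of the members was 0.08, beside 0.0035 for all genes. Leaving out E7.5 replicate 3 gave a median of 0.05, and leaving out E7.5 replicate 1 gave 0.13. The difference was under 0.3 log2 units in 49 members (80.3%), and this share was not counted over all genes. The 95% interval of the difference lay wholly within 2-fold, in either direction, for 51 members (83.6%), beside 55.1% of all genes. Differences of dim probe sets are compressed by RMA, which these intervals do not cover. Members also had more probe sets per gene, 835 for 61 genes beside 77669 for 16523. The part of this in the shares was not tested.

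**Figure D1:**
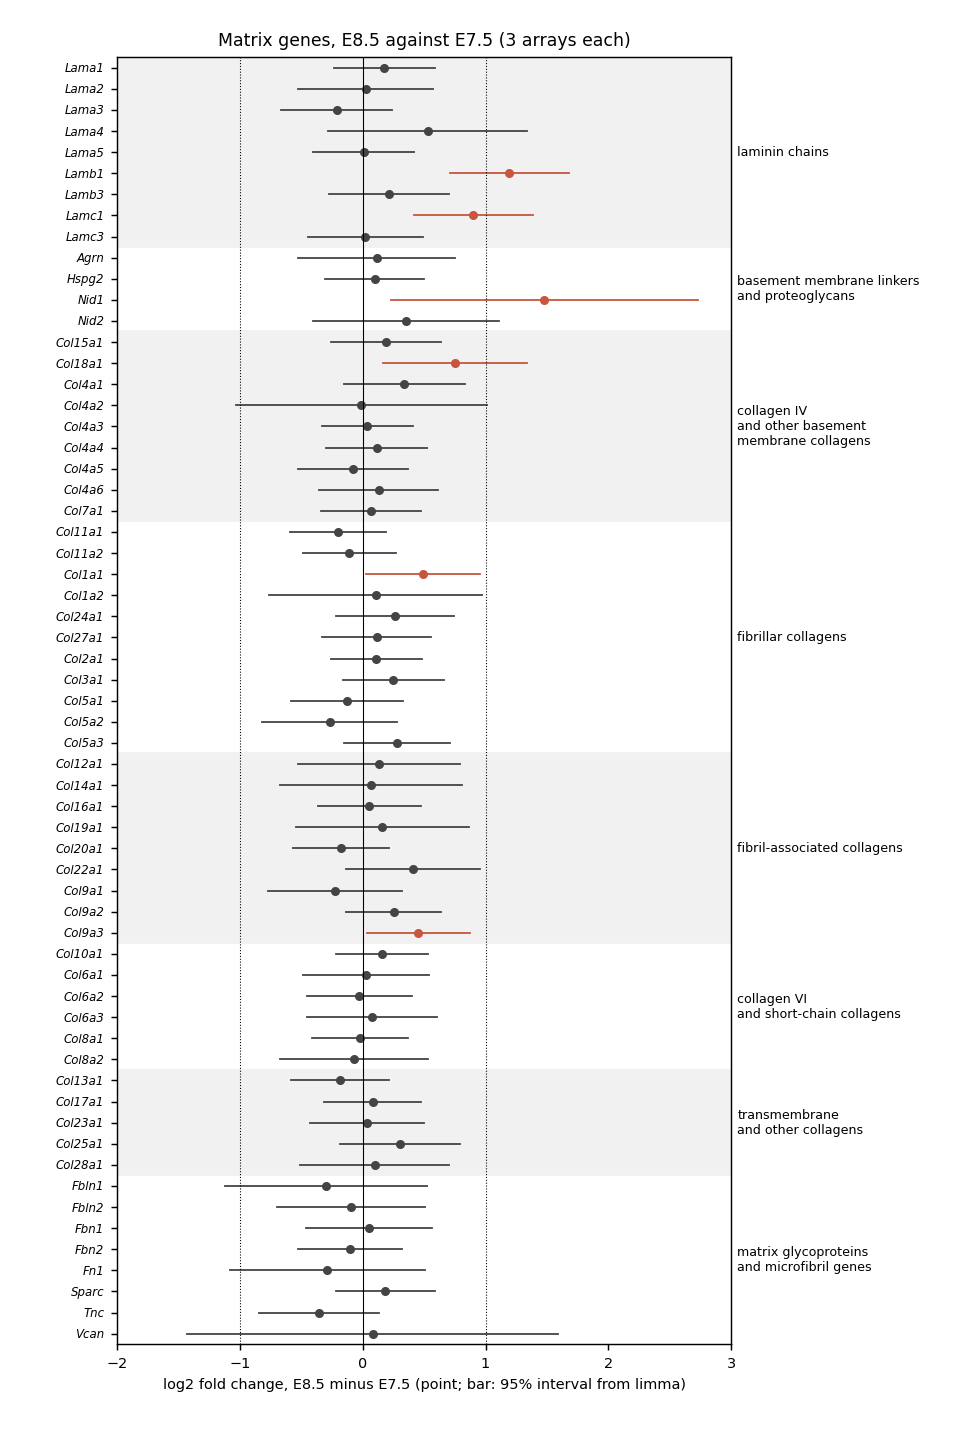
Log2 fold change (E8.5 minus E7.5) of the 61 matrix genes by class, each point with its 95% interval from limma (3 arrays per stage). Red marks the 6 genes with an unadjusted p under 0.05, all on the E8.5 side, and the dotted lines mark 2-fold, which only *Lamb1* and *Nid1* passed.

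Laminin chains had 9 members, of which 8 had the higher mean at E8.5 (50.5% of all genes did), and the median log2 fold change was 0.18. An unadjusted p under 0.05 on the E8.5 side was found in 2 of them, beside 3.11% of all genes. These shares of all genes also stand beside the classes below. *Lamb1* (listed by the array annotation as Lamb1-1, chromosome 12, 31265146 to 31329644 in GRCm38.p6) encodes the beta1 chain, which most laminins of the early embryo contain. Its log2 signal was 6.62, 6.52 and 6.30 on the E7.5 arrays and 7.87, 7.41 and 7.75 on the E8.5 arrays. The groups did not overlap, and the lowest E8.5 array stood farther above the highest E7.5 array than the E7.5 arrays stood apart. The log2 fold change was 1.19 (SE 0.20, n = 3 per stage, 95% interval 0.71 to 1.68, limma adjusted p = 0.17), and 15 of its 16 probe sets had the higher mean at E8.5. Only 2 of the 16 lay higher at E8.5 without overlap, 0 lay lower without overlap, and the others overlapped. The brightest of its probe sets overlapped between stages, with a difference of 0.77 (SE 0.46). *Lamc1* (chromosome 1, 153218922 to 153332786) encodes the gamma1 chain, the partner of beta1 in the same trimers. Its signal was 5.34, 5.58 and 5.59 at E7.5 and 6.18, 6.67 and 6.36 at E8.5, again without overlap, and the log2 fold change was 0.90 (SE 0.20, limma adjusted p = 0.33). All 6 of its probe sets had the higher mean at E8.5, but only 1 of them did so without overlap, and the sizes ranged from 0.01 to 1.39. The brightest differed by 0.19, and the mean over probe sets gave 0.57 (limma unadjusted p = 0.076).

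The alpha chains, which bind the cell surface and set the type of laminin, gave smaller or less even values. *Lama4*, the alpha chain of endothelial laminin-411, read 7.26, 6.74 and 6.53 at E7.5 and 7.87, 7.41 and 6.83 at E8.5, where the E8.5 arrays ranged more widely than the difference of the means, 0.53 (SE 0.33, limma adjusted p = 0.75). Leaving out E8.5 replicate 1 made that difference 0.28, and leaving out E8.5 replicate 3 made it 0.80. *Lama1*, the alpha chain of laminin-111, read 6.52, 6.52 and 6.29 at E7.5 and 6.49, 6.69 and 6.68 at E8.5, a difference of 0.18 (SE 0.17, limma adjusted p = 0.83), or 0.43 with the mean over probe sets. *Lama5*, the alpha chain of laminin-511, read 6.95, 6.73 and 6.97 at E7.5 and 6.78, 6.997 and 6.90 at E8.5, a difference of 0.01 (SE 0.17, limma adjusted p = 0.99). The arrays of both stages overlapped in all 3 genes, and the sign of the *Lama5* difference turned in 4 alternatives. The other 4 chains, *Lama2*, *Lama3*, *Lamb3* and *Lamc3*, which belong to muscle, epithelial and neural laminins, lay between -0.21 and 0.21 (limma adjusted p 0.82 or higher). *Lamb2* was not analysed here.

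**Figure D2:**
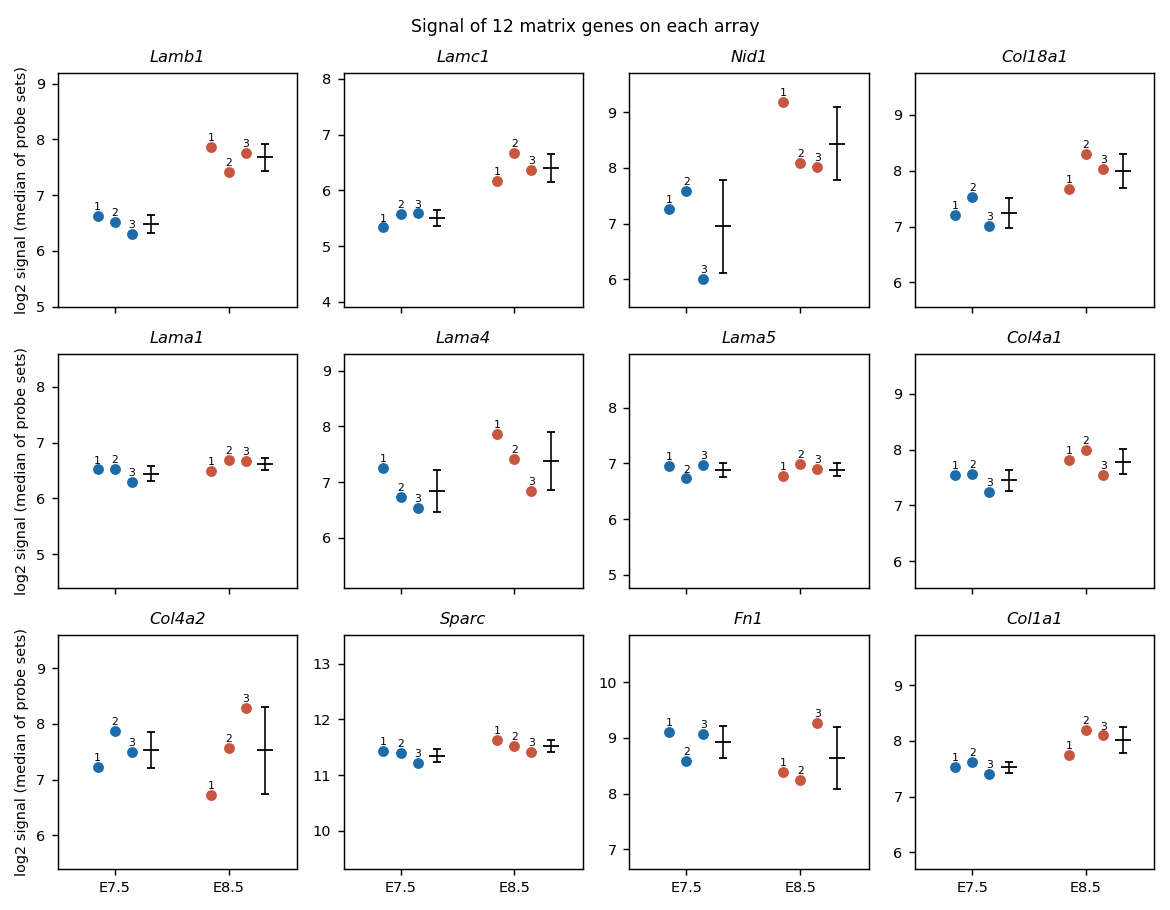
Log2 signal of 12 matrix genes on each array (points, numbered by replicate; E7.5 blue, E8.5 red), with the mean and SD of 3 arrays beside them. Panels span the same number of log2 units but start at different levels. *Lamb1*, *Lamc1*, *Nid1*, *Col18a1* and *Col1a1* do not overlap between the stages, and the other 7 genes do.

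Nidogen-1, encoded by *Nid1* (chromosome 13, 13437602 to 13512275), binds the laminin gamma1 chain and collagen IV and so links the networks. Its log2 signal was 7.27, 7.58 and 6.01 at E7.5 and 9.18, 8.08 and 8.02 at E8.5. The lowest E8.5 array exceeded the highest E7.5 array by less than the replicates of either stage differed. The log2 fold change was 1.48 (SE 0.51, 95% interval 0.23 to 2.73, limma adjusted p = 0.56), the largest of the 61 members, and it ranged from 1.01 to 1.79 when 1 array was left out. All 4 of its probe sets had the higher mean at E8.5, by 0.41 to 2.79 log2 units, and each of them overlapped between stages. *Nid2*, which encodes the related nidogen-2, read 6.55, 6.39 and 6.24 at E7.5 and 6.13, 7.26 and 6.84 at E8.5. Its difference of 0.35 (SE 0.31, limma adjusted p = 0.82) was 0.09 when E8.5 replicate 2 was left out and 0.66 when E8.5 replicate 1 was.

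The promoter windows of *Lamb1* and *Nid1*, the 2 members over 2-fold, are shown with a pair of short motifs found by script on both strands, the GC box read by SP family factors (GGGCGG, or CCGCCC on the other strand) and the core of an ETS site, the motif of the family to which ETV2 belongs (CCGGAA, or TTCCGG). The windows, from RefSeq on GRCm38.p6, run 5′ to 3′ from 250 bases before to 50 bases after the start of the listed transcript on the plus strand, with motif matches in capitals. Lamb1 lies at chr12:31265043-31265342 and Nid1 at chr13:13437352-13437651.
Lamb1: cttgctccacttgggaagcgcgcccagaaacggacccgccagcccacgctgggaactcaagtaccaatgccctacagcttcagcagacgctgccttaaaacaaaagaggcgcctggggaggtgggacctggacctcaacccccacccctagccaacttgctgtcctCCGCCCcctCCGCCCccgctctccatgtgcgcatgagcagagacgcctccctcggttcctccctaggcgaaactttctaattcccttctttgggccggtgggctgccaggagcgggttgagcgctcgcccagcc
Nid1: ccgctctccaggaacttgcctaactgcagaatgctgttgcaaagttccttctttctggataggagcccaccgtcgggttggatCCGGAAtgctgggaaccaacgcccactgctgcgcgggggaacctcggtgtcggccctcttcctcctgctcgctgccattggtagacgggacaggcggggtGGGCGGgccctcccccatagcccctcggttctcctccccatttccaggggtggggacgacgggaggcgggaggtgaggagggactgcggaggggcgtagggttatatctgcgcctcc
The *Lamb1* window held 2 GC boxes and 0 ETS cores, and the *Nid1* window 1 of each, which do not overlap. Of the members, 45 matched the table, with 52 windows. The GC box stood in 63.5% of them and in 35.7% of all 32851 windows of that length, and the ETS core in 1.92% (1 window, that of *Nid1*) and 14.9%. A match is a run of letters, and no binding was measured here.

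The proteoglycans of the basement membrane overlapped between stages. *Hspg2*, which encodes perlecan, read 7.15, 7.35 and 7.06 at E7.5 and 7.26, 7.32 and 7.27 at E8.5, a difference of 0.10 (SE 0.16, limma adjusted p = 0.91). *Agrn*, which encodes agrin, read 7.08, 7.09 and 6.996 at E7.5 and 6.85, 6.95 and 7.70 at E8.5. Its difference of 0.11 (SE 0.26, limma adjusted p = 0.95) was -0.15 without E8.5 replicate 3, the one array that stood above the others.

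Collagen IV and the other basement membrane collagens had 9 members, 1 of them with an unadjusted p under 0.05, around a median log2 fold change of 0.12. That gene was *Col18a1* (chromosome 10, 77052178 to 77166530), which encodes the collagen whose end fragment is endostatin, an inhibitor of vessel growth. It read 7.20, 7.53 and 7.004 at E7.5 and 7.68, 8.29 and 8.03 at E8.5. The groups did not overlap, though the gap between them was smaller than the range within either. The log2 fold change was 0.75 (SE 0.24, 95% interval 0.17 to 1.34, limma adjusted p = 0.52), with 18 of 25 probe sets on the E8.5 side, the brightest among them at 0.84. *Col15a1*, which encodes the closest relative of collagen XVIII, read 7.48, 7.36 and 7.72 at E7.5 and 7.69, 7.58 and 7.86 at E8.5, a difference of 0.19 (SE 0.18, limma adjusted p = 0.83). With the mean over its probe sets the difference was 0.57 (SE 0.14, limma unadjusted p = 0.0059, adjusted p = 0.30), a mean that includes 1 probe set at 6.49.

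*Col4a1* and *Col4a2* encode the alpha1 and alpha2 chains that form the common collagen IV trimer, and they lie head to head on chromosome 8. Their RefSeq promoter windows on GRCm38.p6, 250 bases before to 50 after each start, share 78 bases, chr8:11312777-11312854. Both are shown 5′ to 3′ on the strand of the gene, with the shared bases in capitals, because the values of the pair are set side by side. Col4a2 lies at chr8:11312555-11312854 on the plus strand and Col4a1 at chr8:11312777-11313076 on the minus strand.
Col4a2: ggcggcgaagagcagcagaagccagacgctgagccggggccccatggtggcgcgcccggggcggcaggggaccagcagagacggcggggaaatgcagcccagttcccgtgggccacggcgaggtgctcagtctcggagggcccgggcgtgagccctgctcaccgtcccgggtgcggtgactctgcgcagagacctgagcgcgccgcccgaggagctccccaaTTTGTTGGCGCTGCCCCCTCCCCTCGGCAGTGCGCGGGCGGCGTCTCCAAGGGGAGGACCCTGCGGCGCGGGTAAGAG
Col4a1: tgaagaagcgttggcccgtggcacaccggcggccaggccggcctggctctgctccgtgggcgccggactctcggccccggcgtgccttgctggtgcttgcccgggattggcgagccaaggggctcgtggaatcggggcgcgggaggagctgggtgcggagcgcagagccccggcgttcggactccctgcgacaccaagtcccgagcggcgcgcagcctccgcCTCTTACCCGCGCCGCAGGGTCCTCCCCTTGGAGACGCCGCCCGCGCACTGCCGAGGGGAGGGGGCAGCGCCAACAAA
*Col4a1* read 7.54, 7.57 and 7.24 at E7.5 and 7.82, 8.00 and 7.54 at E8.5, a difference of 0.34 (SE 0.20, limma adjusted p = 0.74). *Col4a2* read 7.23, 7.88 and 7.501 at E7.5 and 6.72, 7.57 and 8.28 at E8.5, a difference of -0.01 (SE 0.42, limma adjusted p = 1.00). The arrays of both stages overlapped in both genes, the *Col4a2* interval of -1.03 to 1.01 spanned 2-fold on each side, and its sign turned in 6 of 14 alternatives. *Col4a3*, *Col4a4*, *Col4a5* and *Col4a6*, the chains of kidney and other specialised membranes, lay between -0.08 and 0.13 (limma adjusted p 0.90 or higher), as did *Col7a1*, the anchoring fibril collagen, at 0.07.

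The fibrillar collagens, which form the fibres of connective tissue, had 11 members with a median of 0.11 and 1 unadjusted p under 0.05. *Col1a1*, the alpha1 chain of collagen I, read 7.54, 7.62 and 7.41 at E7.5 and 7.75, 8.20 and 8.10 at E8.5, without overlap, so that its log2 fold change was 0.49 (SE 0.19, limma adjusted p = 0.60). Its brightest probe set went the other way, at -0.26 (SE 0.31), and its partner chain *Col1a2* differed by 0.11 (SE 0.36). The fibril-associated collagens had 9 members and a median of 0.13. Among them *Col9a3*, a chain of the collagen IX known from cartilage, read 7.64, 7.92 and 7.99 at E7.5 and 8.31, 8.34 and 8.25 at E8.5, with a log2 fold change of 0.45 (SE 0.17, limma adjusted p = 0.59). The E8.5 arrays lay close together above all E7.5 arrays, but the brightest probe set overlapped between stages, at 0.05 (SE 0.17), and the mean over probe sets gave 0.26. Its partners differed by 0.25 (*Col9a2*, also without overlap) and -0.23 (*Col9a1*). The brightest *Col9a1* probe set went the other way, at 0.295 (SE 0.17) without overlap. Of the 16 *Col9a1* probe sets, 7 had the higher mean at E8.5 and 9 the lower. Collagen VI and the short-chain collagens (6 members, median 0.0021) and the transmembrane and other collagens (5 members, median 0.08) held no unadjusted p under 0.05.

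The matrix glycoproteins and microfibril genes were the one class with more members lower (5) than higher (3) at E8.5, with a median of -0.10 and no unadjusted p under 0.05. *Sparc*, which encodes a collagen-binding protein of basement membranes, read 11.43, 11.39 and 11.21 at E7.5 and 11.63, 11.53 and 11.42 at E8.5. Its difference of 0.18 (SE 0.17, limma adjusted p = 0.82) was small, yet all 12 of its probe sets had the higher mean at E8.5, by 0.12 to 0.46. *Fn1*, the fibronectin gene, read 9.10, 8.59 and 9.07 at E7.5 and 8.39, 8.24 and 9.27 at E8.5, a difference of -0.29 (SE 0.33, 95% interval -1.08 to 0.50, limma adjusted p = 0.86). E8.5 replicate 3 stood above all E7.5 arrays and the other 2 below them, and the difference ranged from -0.60 without it to -0.09 without E8.5 replicate 2. *Vcan*, which encodes the proteoglycan versican, read 5.62, 6.65 and 7.70 at E7.5 and 7.11, 7.25 and 5.86 at E8.5, so that each stage spanned more than 2-fold and the difference of 0.08 (SE 0.62, limma adjusted p = 0.99) has no settled sign. *Tnc*, which encodes tenascin-C, a matrix protein of migrating mesenchyme, read 5.58, 5.55 and 5.46 at E7.5 and 4.86, 5.40 and 5.27 at E8.5. Of the 6 *Tnc* probe sets, 3 had the higher mean at E8.5 and 3 the lower. The brightest overlapped between stages, at 0.02 (SE 0.18). *Tnc* had the lowest fold change of the members at -0.35 (SE 0.20, limma adjusted p = 0.73) and, with *Col11a1* (-0.20) and *Col20a1* (-0.18), was 1 of 3 members whose E8.5 arrays all lay below the E7.5 arrays. These 3 genes were chosen after their values were seen.

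Single probe sets showed what the gene medians leave out. Of the 835 member probe sets, 523 (62.6%) had the higher mean at E8.5, beside 48.7% of all probe sets with a single symbol. The 3 E8.5 arrays lay above the 3 E7.5 arrays in 85 (10.2%, with 6.59% of all) and below in 32 (3.83%, with 7.33%). Over 2 log2 units without overlap, 5 member probe sets were higher at E8.5 (0.599%, with 0.707% of all) and 2 lower (0.24%, with 1.3%). Probe sets of a gene share their RNA and are not replicates of a stage.

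The member probe set with the largest difference belonged to *Col15a1*, at 3.43, 3.51 and 3.49 on the E7.5 arrays and 9.34, 10.02 and 10.51 on the E8.5 arrays. The difference was 6.49 log2 units with no overlap, and 8 of the 77669 probe sets differed more towards E8.5. The other 11 probe sets of the gene lay between -0.43 and 0.33. The brightest probe set of *Lama1* read 5.77, 9.46 and 6.00 at E7.5 and 11.34, 10.07 and 11.24 at E8.5, a difference of 3.81 (SE 1.05, limma adjusted p = 0.66), where the gene median differed by 0.18. The 2 brightest probe sets of *Lama4* also did not overlap, the first at 10.59, 10.03 and 9.53 at E7.5 and 11.44, 11.51 and 10.90 at E8.5, a difference of 1.23 (SE 0.33, limma adjusted p = 0.64). Of the 11 *Lama4* probe sets, 9 had the higher mean at E8.5. The 2 with the lower mean did not overlap either, the lowest at -0.85. The brightest probe set of *Col4a1* read 10.40, 11.05 and 10.92 at E7.5 and 11.97, 11.89 and 11.59 at E8.5, a difference of 1.03 (SE 0.23, limma adjusted p = 0.51). Of the 24 *Col4a1* probe sets, 15 had the higher mean at E8.5 and 9 the lower, from -2.50 to 2.57. Without overlap, 4 of them lay higher and 1 lower.

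With each gene read from its brightest probe set, 5 members had an unadjusted p under 0.05 on the E8.5 side (*Col9a2*, *Col4a1*, *Lama4*, *Lama1* and *Col19a1*) and 0 on the E7.5 side, beside 3.51% and 3.42% of all genes. The arrays did not overlap in 11 members higher and 1 lower at E8.5, beside 8.15% and 5.65% of all genes, and 4 members were over 2-fold higher and 0 lower, beside 3.19% and 4.46%. None of the 5 was among the 6 named from the medians. The arrays of *Col18a1* and *Col9a2* (higher at E8.5) and *Col20a1* (lower) did not overlap under either reading, and *Nid1* was over 2-fold under both. *Col10a1* (higher at E8.5 without overlap) has 1 probe set, so both readings of it are the same values. No member passed the adjusted threshold from the brightest probe sets either, where 0.0545% of all genes did.

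**Figure D3:**
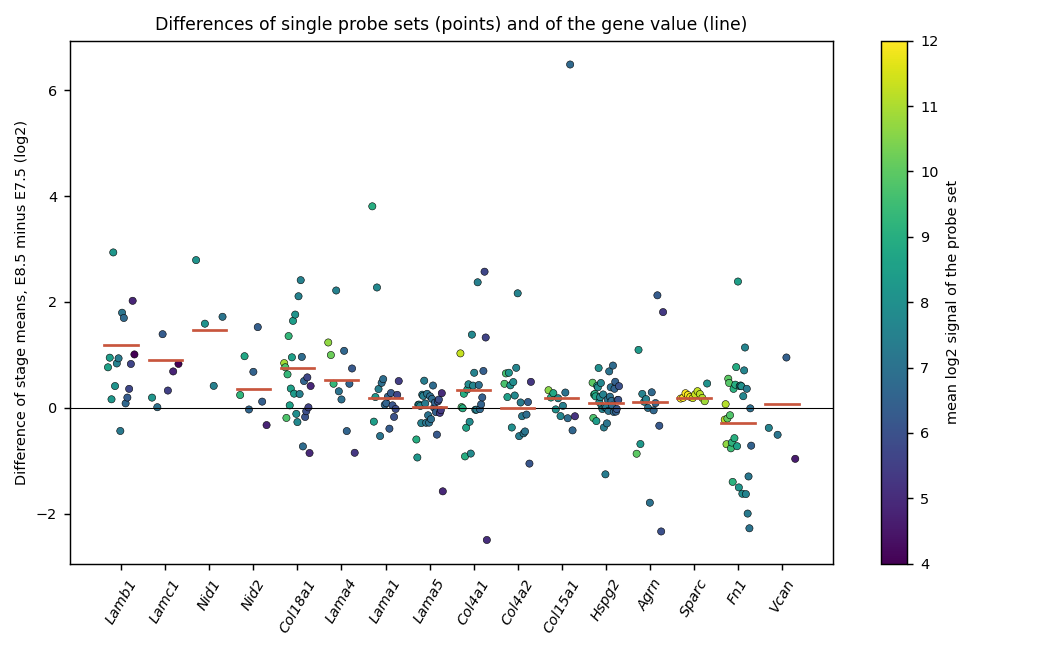
Difference of stage means (E8.5 minus E7.5, log2) for every probe set of 16 basement membrane genes, coloured by mean log2 signal, with the gene-level difference as a red line. *Sparc* probe sets lie together between 0.12 and 0.46, whereas 1 *Col15a1* probe set at 6.49 and 1 *Lama1* probe set at 3.81 stand far from the lines of their genes.

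Replicates of one stage also parted by single probe sets. In 32 member probe sets (3.83%, with 5.81% of all) the 3 arrays of a stage spread over more than 4 log2 units, which is 16-fold, and 8 of these were among the 31 of *Fn1*. One *Col18a1* probe set read 11.51, 2.80 and 4.51 at E7.5 and 4.96, 9.29 and 11.80 at E8.5. One *Fn1* probe set read 6.15, 10.95 and 4.81 at E7.5 and 6.51, 9.81 and 12.74 at E8.5, while a brighter one stayed between 10.87 and 11.28 on all arrays. One *Col4a2* probe set read 5.12, 10.31 and 6.60 at E7.5 and 5.14, 5.43 and 10.12 at E8.5. In these probe sets high and low arrays stood side by side within a stage, and 3 of the 16 *Lamb1* probe sets were among the 32, whereas *Sparc*, *Lamc1* and *Nid1* had 0. Each sample held RNA of 50 cells, and the part of amplification in this spread was not tested.

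**Figure D4:**
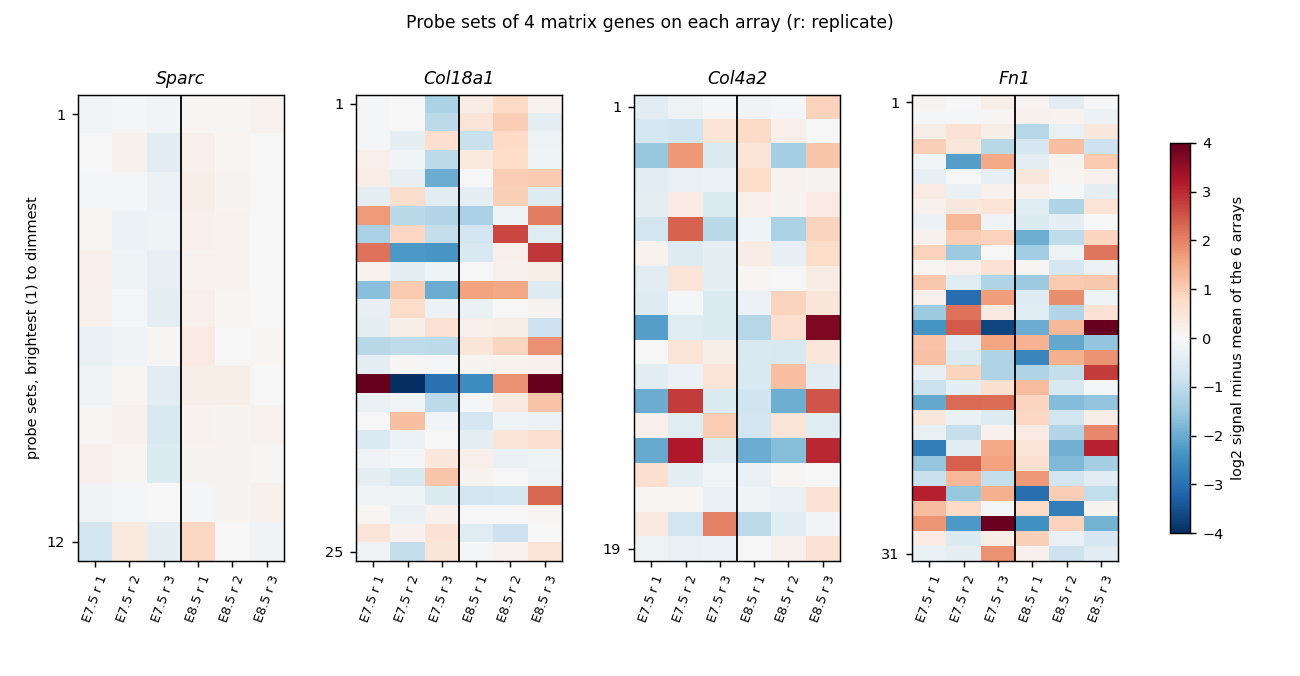
Log2 signal of each probe set minus its mean over the 6 arrays, for *Sparc* (12 probe sets), *Col18a1* (25), *Col4a2* (19) and *Fn1* (31), ordered from brightest to dimmest, with a line between the stages; deviations beyond 4 log2 units are drawn in the end colours. *Sparc* is nearly even, while single probe sets of the other genes are high on some arrays of a stage and low on others.

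Genes that make, bind or cut the matrix were read from 3 lists. Their counts at an unadjusted p under 0.05 stand beside 3.11% of all genes on the E8.5 side and 4.68% on the E7.5 side. Of 28 enzymes and chaperones of collagen and matrix synthesis, 1 had an unadjusted p under 0.05 on the E8.5 side and 2 on the E7.5 side (median 0.05). *Pcolce2*, an enhancer of procollagen processing, read 8.86, 8.37 and 8.71 at E7.5 and 5.57, 4.29 and 5.69 at E8.5, with a log2 fold change of -3.46 (SE 0.41, limma adjusted p = 0.072), and its relative *Pcolce* differed by 0.76 (SE 0.26, limma adjusted p = 0.56). *Serpinh1*, the collagen chaperone HSP47, differed by -1.03 (SE 0.42, limma adjusted p = 0.63), with E7.5 arrays from 9.53 to 11.17. Among 24 matrix receptors 0 were on the E8.5 side and 1, the hyaluronan receptor *Cd44* at -0.50, on the E7.5 side (median -0.04). Among 17 proteases and inhibitors 2 were on the E8.5 side, *Timp3* (1.21), an inhibitor bound to the matrix, and *Adamts4* (0.67), a protease of versican and aggrecan, and 0 on the E7.5 side (median 0.22). No gene of the 3 lists passed the adjusted threshold.

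The genes of the sort had their lower mean at E8.5, from 11.82 to 11.33 for *Etv2*, from 9.11 to 8.37 for *Kdr* and from 8.24 to 7.72 for *Itga2b*, and none passed the adjusted threshold. Of 8 marker lists of cell types that the sort could hold, 3 had mean log2 signals that did not overlap between stages. The mean log2 signal of 10 endothelial markers was 7.78 to 8.84 at E7.5 and 9.08 to 9.44 at E8.5, with 9 of 10 higher at E8.5 (beside 50.5% of all genes), among them *Cldn5* at 1.92 and *Emcn* at 2.58. That of 8 primitive blood markers was 6.65 to 7.07 and 5.51 to 5.84, with 5 of 8 lower at E8.5 and a median log2 fold change of -0.13, beside *Hbb-bh1* at -4.88, *Runx1* at -2.89 and *Gata1* at -1.86. That of 12 parietal endoderm markers, cells known for making laminin and collagen IV, was 7.01 to 7.39 and 6.73 to 6.91, with 7 of 12 lower at E8.5 and a median of -0.03. *Krt8* (-2.05) and *Krt18* (-1.91), keratins of endoderm that stand in the parietal list, lay lower at E8.5 without overlap. Visceral endoderm markers (11 genes) lay at 6.93 to 7.496 and 6.79 to 7.05, and mesenchymal markers (13 genes) at 7.65 to 7.72 and 6.95 to 7.94, overlapping between stages, as did trophoblast (4 genes), allantois and extra-embryonic mesoderm (7 genes) and notochord and neural markers (6 genes). Single genes within these lists had large differences of the means. The allantois list had 4 genes higher and 3 lower at E8.5, with *Pitx1* at 2.38 and *Bmp4* at -5.39 (limma adjusted p = 0.035). The notochord and neural list had 2 higher and 4 lower, with *T* at -2.01, whose arrays overlapped between stages. The mesenchymal list had 7 higher and 6 lower, with *Myl7* at -2.55. In the 8 marker lists only *Bmp4* and *Hbb-bh1* (limma adjusted p = 0.046) passed the adjusted threshold. The limma adjusted p was 0.50 for *Runx1*, 0.36 for *Gata1*, 0.14 for *Cldn5*, 0.42 for *Emcn* and 0.56 for *Myl7*. *Runx1* read 8.34, 5.12 and 8.39 at E7.5 and 4.74, 4.45 and 4.01 at E8.5. The part of these cell types in the matrix values was not tested, and no detection calls accompany the values, so that no marker can be called absent. Over the gene values (medians of probe sets) of all 16523 genes, arrays of one stage correlated at 0.876 to 0.896. Arrays of different stages correlated at 0.855 to 0.881.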

How the data were processed

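The table deposited by the authors held RMA signals on the log2 scale for 90788 exon probe sets. The submitters' processing notes name Affymetrix Power Tools, and neither its version nor the rule that kept these probe sets is given in the sources used here. Of them 77669 had 1 gene symbol in the platform annotation, 12465 had none listed, and 654 with several were left out. Each gene took the median of its probe sets, without a filter, and 60 member symbols were current in RefSeq while Lamb1-1 was read as *Lamb1*. Stages were compared as E8.5 minus E7.5 in R 4.3.3 with limma 3.58.1 (lmFit, eBayes, 3 arrays per group), with Benjamini-Hochberg adjustment over all 16523 genes. An exact permutation test of 3 against 3 arrays cannot give a two-sided p below 0.1, so it was not used. The script was checked on simulated data. Members and lists were chosen with earlier results of these data known. Genes named with values on each array were those with an unadjusted p under 0.05 and the genes of the endothelial basement membrane listed whatever their values, of which *Lamb2* was not analysed here. Others are named by range or as chosen after their values were seen, among them *Tnc*, *Col11a1*, *Col20a1*, *Col9a2*, *Col19a1* and the single probe sets. No detection p-values were given, so depth is unknown, and precision is limited by the number of arrays. Alternatives changed the scaling, the value per gene, the filter on dim genes or on probe sets, or the variance model, blocked on the replicate number, or left out 1 array.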

Additional observations from a re-analysis of the deposited data

How the results depend on the processing

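No member passed the adjusted threshold under any of the 14 alternatives, where the count over all genes was 18 as reported, 15 with each array's median subtracted or quantile normalization again, 11 with the mean over probe sets, 9 with the brightest probe set, 14 with at least 3 probe sets, 16 with a trended robust variance, 0 with genes of above-median signal, and 0 to 12 without 1 array. The median log2 fold change of the members was 0.13 with array medians subtracted, 0.15 after quantile normalization again, 0.17 with the brightest probe set and 0.0511 to 0.129 without 1 array. Members over 2-fold on the E8.5 side numbered 1 with the mean and 4 with the brightest probe set. The count of 6 unadjusted p under 0.05 ranged from 3 to 5 without 1 array. It was 4 with the mean over probe sets, where 2 of the 6 genes (*Lamb1* and *Nid1*) remained, and 4 with the trended robust variance, where *Col1a1* and *Col9a3* were lost. The sign of *Col4a2* turned to 0.0356 with medians subtracted, 0.0626 with quantile normalization again, 0.19 with the mean, 0.45 with the brightest probe set and, without 1 array, up to 0.39 (lowest -0.39). With the mean and the brightest probe set, *Agrn* was -0.008 and -0.87, *Lama5* -0.0752 and -0.60, and *Vcan* -0.23 and -0.38, and with the brightest *Col1a1* was -0.26. Without 1 array *Agrn* ranged from -0.15 to 0.27, *Lama5* from -0.0667 to 0.0659 and *Vcan* from -0.44 to 0.60. The other 13 named genes kept their direction in every alternative in which they were tested; *Lamc1*, *Lama1*, *Nid2* and *Vcan* were not tested under the signal filter. The cause of these shifts was not tested. Same-numbered arrays shared little deviation over all genes: their deviations from the stage means correlated at 0.0074, -0.0083 and -0.00082. This does not settle whether same-numbered samples were collected or amplified together. With the replicate block, 4 members had an unadjusted p under 0.05 and 0 of all genes passed the adjusted threshold.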
